A study of Mus musculus with 16 samples.

Results

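Adipokines are proteins that fat tissue releases into blood or onto neighbouring cells. The transcripts of 9 such genes were followed in white and brown fat of mice, namely Adipoq, Lep, Retn, Cfd, Nampt, Metrnl, Nrg4, Sfrp5 and Serpina12. They were picked by gene symbol, and all 9 were among the 38396 rows of the expression table, of which 21127 were protein-coding. RNA had been sequenced from epididymal white fat (eWAT), inguinal white fat (iWAT) and brown fat (BAT) of 12-week-old mice, to ask what loss of the RNA-binding protein HuR in fat does to gene expression. The mice labelled HuR-FKO carried floxed alleles of Elavl1, the gene of HuR, together with Adipoq-Cre, and the mice labelled Ctrl were littermates with the same floxed alleles and no Cre. Cre in the HuR-FKO mice was thus driven from Adipoq, itself one of the 9 genes, whose promoter is used in mature adipocytes. Each genotype had 3 libraries of eWAT, 3 of iWAT and 2 of BAT, 16 in all, and the RNA of each library came from 3 pooled mice, so the spread between libraries is one between pools.

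White adipocytes secrete adiponectin, the Adipoq product, which acts on liver and muscle to favour insulin action, and leptin, the Lep product, which reports the size of the fat stores to the brain. Brown adipocytes burn fat for heat, release little leptin, and are known for signals of their own such as neuregulin 4, the Nrg4 product, which acts on the liver. Complement factor D, or adipsin (Cfd), was found as a protein of mouse adipocytes, and resistin (Retn) is in the mouse a product of adipocytes, while in humans it comes mainly from macrophages.

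Elavl1 itself, the deleted gene, had no lower level in HuR-FKO libraries. It read 13.9, 15.4 and 13.3 FPKM (fragments per kilobase of transcript, scaled to library size) in eWAT of HuR-FKO mice, against 13.6, 13.8 and 12.2 FPKM in eWAT of Ctrl mice. In iWAT the HuR-FKO libraries read 16.5, 15.3 and 13.9 FPKM and the Ctrl libraries 13.2, 15.8 and 12.4 FPKM. In BAT the HuR-FKO libraries read 8.98 and 8.17 FPKM and the Ctrl libraries 8.34 and 7.36 FPKM. The log2 differences, HuR-FKO minus Ctrl, were 0.10 (eWAT), 0.14 (iWAT) and 0.11 (BAT), with adjusted p from 0.822 to 0.883 (limma, Benjamini-Hochberg). The paper itself reports that HuR was missing from eWAT, iWAT and BAT of such mice, on western blots and in real-time PCR. The expression values do not show which exons the reads of Elavl1 came from. Every genotype difference given here is thus one between libraries labelled HuR-FKO and libraries labelled Ctrl.

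The libraries matched their depots. The summed level of 8 brown adipocyte markers (Ucp1, Cidea, Elovl3, Dio2, Cox7a1, Cox8b, Zic1 and Lhx8) was 6692 to 9632 FPKM in BAT, 580.0 to 1929 FPKM in iWAT and 54.2 to 111 FPKM in eWAT. The summed level of 5 mesothelial markers was 95.3 to 173 FPKM in eWAT and at most 2.43 FPKM elsewhere. Transcripts of the mitochondrial genome took 37.7 to 44.5% of the protein-coding FPKM in BAT, 19.7 to 27.3% in iWAT and 12.1 to 16.8% in eWAT, which bears on every comparison with BAT. The share also separated the genotypes, at 14.2 to 16.8% in HuR-FKO and 12.1 to 13.9% in Ctrl eWAT, 23.9 to 27.3% in HuR-FKO and 19.7 to 23.3% in Ctrl iWAT, and 43.7 to 44.5% in HuR-FKO and 37.7 to 39.2% in Ctrl BAT. With mitochondrial genes left out of the total, the number of adipokines called between genotypes was still 0 in each depot. FPKM holds no counts, and a depth estimated from the steps between low values was 8.35 to 17.75 M (mega) fragments, the lowest of which, for 1 of the BAT Ctrl libraries, is uncertain. Estimated depth sets no interval here, since all errors given are between libraries.

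The 9 transcripts lay far apart in level. In Ctrl eWAT, Cfd ranked 2 by mean FPKM among the 21127 protein-coding rows, Adipoq 23 and Retn 30, while Lep ranked 134, Nrg4 1166, Nampt 1477, Sfrp5 2769 and Metrnl 4632. Serpina12 was next to absent and ranked 16796. In Ctrl BAT the ranks were 67 for Cfd, 127 for Adipoq, 532 for Retn, 668 for Nampt, 1134 for Nrg4, 2083 for Lep, 8097 for Metrnl and 10612 for Sfrp5. The 9 genes made up, of the summed protein-coding FPKM, 2.78 to 3.56% in HuR-FKO eWAT and 2.44 to 3.18% in Ctrl eWAT, 1.58 to 2.32% in HuR-FKO iWAT and 1.72 to 1.83% in Ctrl iWAT, and 0.164 to 0.225% in HuR-FKO BAT and 0.218 to 0.322% in Ctrl BAT. Cfd alone made up 65.6 to 82.2% of that sum in white fat and 36.7 to 52.9% in BAT.

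**Figure D1:**
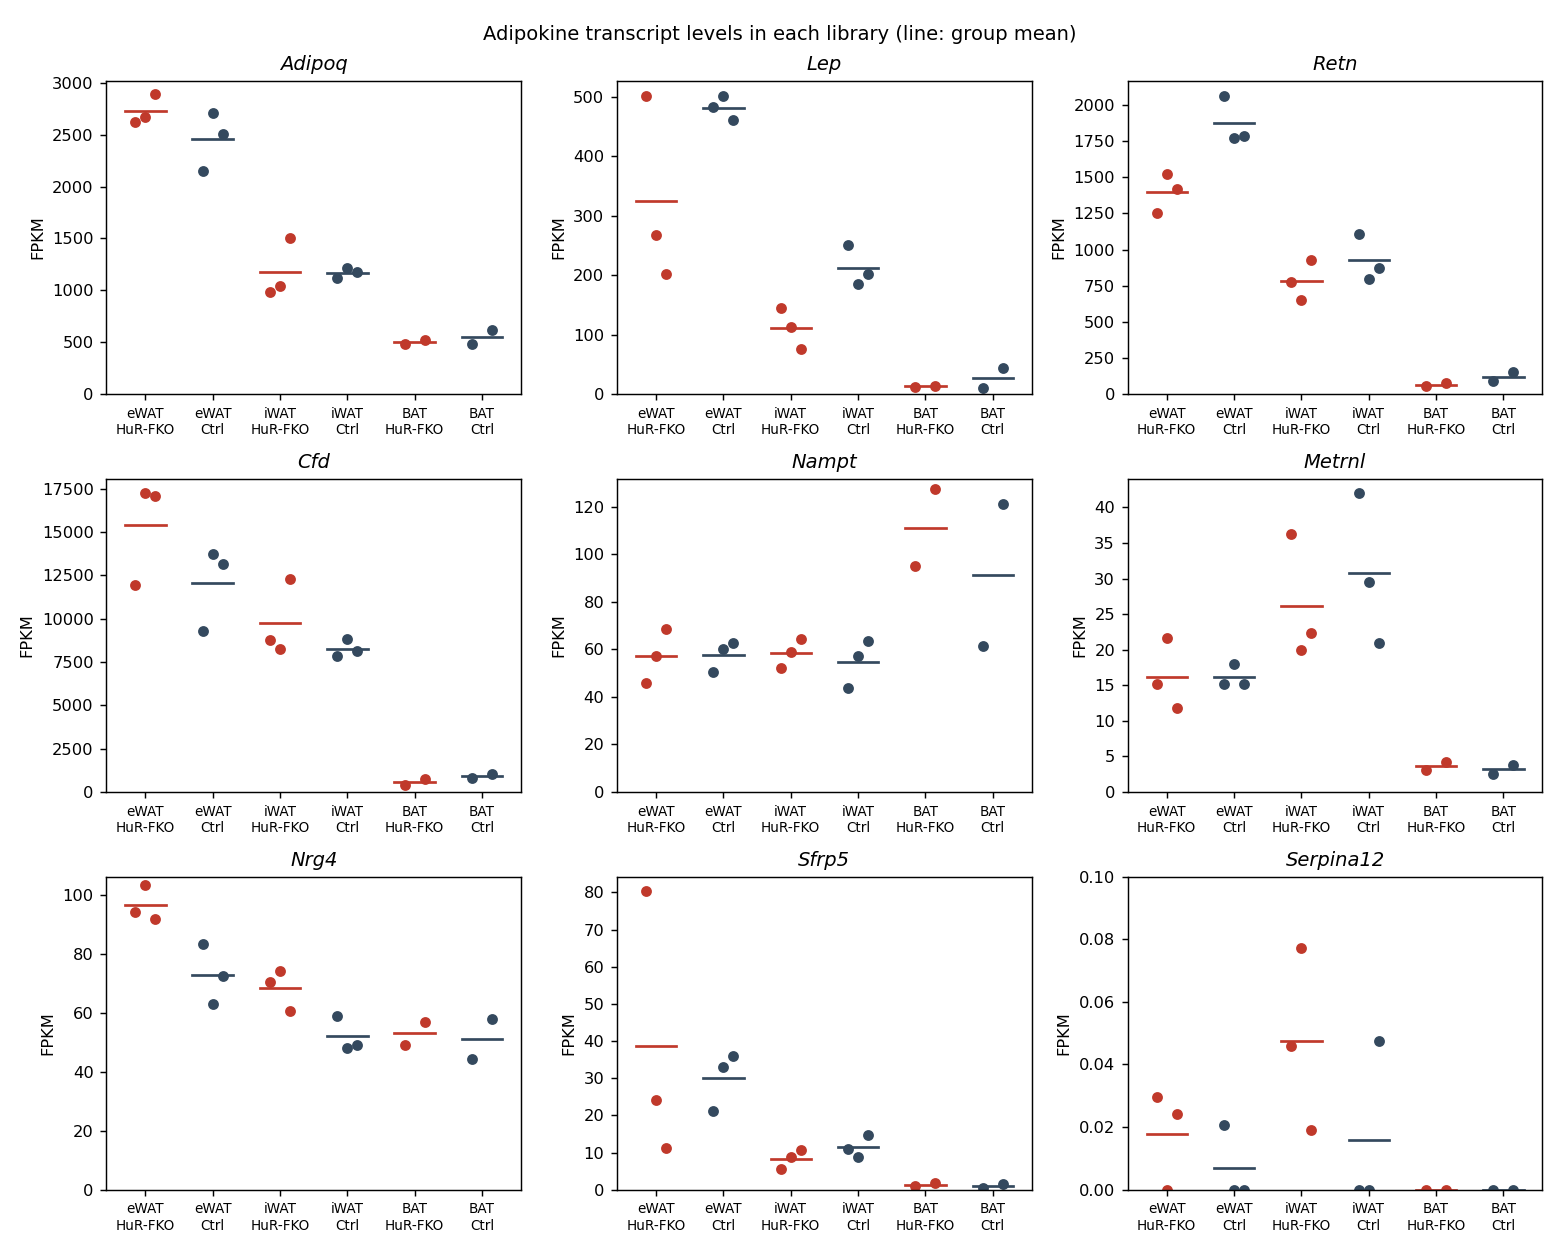
FPKM of each of the 9 adipokine genes (linear axes from 0, a scale of its own in each panel) in the 16 libraries, with HuR-FKO left of Ctrl within each depot. Points are libraries and lines are group means (n = 3, 3 and 2 per genotype in eWAT, iWAT and BAT). Adipoq, Lep, Retn, Cfd and Sfrp5 step down through eWAT, iWAT and BAT, Metrnl is highest in iWAT, Nampt is highest in BAT, and Serpina12 does not exceed 0.0772 FPKM.

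Among the depots of Ctrl mice, 4 adipokines, Adipoq, Lep, Retn and Cfd, had the same order of means: eWAT, then iWAT, then BAT. Differences between depots were tested in the 8 Ctrl libraries, as log2(FPKM + 1), over 13054 protein-coding genes. At an adjusted p under 0.05 (limma, Benjamini-Hochberg), 5 of the 8 adipokines tested were higher and 1 was lower in eWAT than in iWAT, where 28.1% of all genes tested were called in either direction. BAT had 1 higher and 6 lower against iWAT, beside 74.5% of all genes called, and 7 lower against eWAT, beside 74.2% of all genes called. With so many genes called, a count of adipokines called in BAT is close to the background, and the sizes of the differences say more. The median of all genes tested was -0.69 for BAT minus iWAT and -0.66 for BAT minus eWAT on the log2 scale, and -0.02 for eWAT minus iWAT, so the BAT differences are also given relative to that median. The median over the adipokines was -2.76, -2.94 and 0.77 in the same comparisons. Under median-ratio scaling the medians of all genes were -0.14 and -0.10, and the share of called genes that were higher in BAT was 40.1% against iWAT and 42.3% against eWAT, in place of 11.9% and 12.6% with the FPKM as deposited. A scaling that left the mitochondrial genes out of the total gave 19.2% and 22.6%. For eWAT against iWAT that scaling gave 32.0% higher, in place of 43.5%. In bulk tissue, fewer cells of a type and less RNA per cell cannot be told apart.

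Adipoq (ENSMUSG00000022878, mm10 chromosome 16, 23146536 to 23158028, plus strand) encodes adiponectin. In Ctrl mice it read 2153, 2706 and 2508 FPKM in eWAT, 1120, 1218 and 1177 FPKM in iWAT, and 484 and 622 FPKM in BAT. No library of a depot overlapped another depot. The mean of eWAT was 2.096 times that of iWAT (log2 difference 1.06, SE 0.15, adjusted p = 0.000934, limma). BAT was lower than iWAT by a log2 difference of -1.09 (SE 0.16, adjusted p = 0.000260, limma), or -0.40 relative to the median of all genes, and median-ratio scaling gave -0.41 with an adjusted p of 0.0678, no longer a call. Against eWAT, BAT was lower by -2.15 (SE 0.16, adjusted p = 5.83e-06, limma), or -1.49 relative to the median. Of Adipoq, Lep, Retn and Cfd, Adipoq had the smallest differences between BAT and white fat.

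Lep (ENSMUSG00000059201, mm10 chromosome 6, 29060220 to 29073877, plus strand) encodes leptin. Ctrl libraries read 483, 502 and 460 FPKM in eWAT, 251, 185 and 202 FPKM in iWAT, and 10.6 and 43.3 FPKM in BAT. The depots did not overlap, and the 2 BAT libraries lay furthest apart, at a coefficient of variation of 85.9%, against 4.33% in Ctrl eWAT and 16.1% in Ctrl iWAT. Lep was called higher in eWAT than in iWAT (log2 difference 1.19, SE 0.39, adjusted p = 0.0470, limma), by means 2.27 times apart. This call was fragile. Ctrl libraries of eWAT and iWAT with the same number deviated together, and with the number as a block the difference of 1.19 had an adjusted p of 0.0534. It was also lost with any 1 eWAT or iWAT Ctrl library left out (adjusted p from 0.0669 to 0.143), whereas without either BAT Ctrl library, which leaves no spread within BAT in the shared error, it was as low as 0.000449. In BAT, Lep fell, with log2 differences of -3.22 against iWAT (SE 0.43, adjusted p = 0.000132, limma) and -4.41 against eWAT (SE 0.43, adjusted p = 2.27e-05, limma), which is -2.53 and -3.75 relative to the median of all genes. Leaving out either BAT Ctrl library kept both calls, with differences from -4.19 to -2.26 against iWAT and from -5.38 to -3.44 against eWAT.

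Retn (ENSMUSG00000012705, mm10 chromosome 8, 3655770 to 3660110, plus strand) encodes resistin. In Ctrl mice it read 2065, 1771 and 1787 FPKM in eWAT, 1111, 799 and 872 FPKM in iWAT, and 91.2 and 151 FPKM in BAT, again with no overlap between depots. The eWAT mean was 2.02 times that of iWAT (log2 difference 1.02, SE 0.20, adjusted p = 0.00514, limma). BAT differed from iWAT by -2.96 (SE 0.22, adjusted p = 5.55e-06, limma) and from eWAT by -3.98 (SE 0.22, adjusted p = 1.53e-06, limma), or by -2.26 and -3.32 relative to the median.

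Cfd (ENSMUSG00000061780, mm10 chromosome 10, 79890853 to 79892655, plus strand) encodes the protease that activates the alternative pathway of complement by cutting factor B. Ctrl libraries read 9270, 13726 and 13162 FPKM in eWAT, 7823, 8834 and 8136 FPKM in iWAT, and 780 and 1030 FPKM in BAT. The eWAT libraries all lay above the iWAT libraries, but the difference of 0.52 (SE 0.20, adjusted p = 0.0822, limma) did not pass the threshold. Without the first eWAT Ctrl library, the lowest of the 3, it was 0.70 with an adjusted p of 0.0310, and with all 16 libraries and genotype as an additive term it was 0.59 with an adjusted p of 0.0250. In BAT, Cfd fell, by -3.20 against iWAT (SE 0.23, adjusted p = 3.91e-06, limma) and -3.73 against eWAT (SE 0.23, adjusted p = 2.03e-06, limma), which is -2.51 and -3.06 relative to the median.

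The stretch of 250 bases upstream of the RefSeq start (GRCm38.p6, the assembly of mm10) is shown for these 4 adipokines, since they moved together between depots, and for Nampt, which did not move with them. Sfrp5 had the same order of depots as these 4, and its window is not shown. All 9 genes had an entry. The letters of the TATA box, TATAAA, were searched on both strands. So were those of the CCAAT box, of a site of the C/EBP type, TTGCNNAA, of the core site of nuclear receptors, AGGTCA, and of the GC box, GGGCGG, with no match overlapping another, and the capitals mark every match. The strand shown is that of the gene, 5′ to 3′.
Adipoq: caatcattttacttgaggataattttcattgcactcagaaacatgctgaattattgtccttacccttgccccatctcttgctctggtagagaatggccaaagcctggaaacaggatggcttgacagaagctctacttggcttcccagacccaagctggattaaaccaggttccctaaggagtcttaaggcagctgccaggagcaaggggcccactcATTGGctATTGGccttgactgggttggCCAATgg
Lep: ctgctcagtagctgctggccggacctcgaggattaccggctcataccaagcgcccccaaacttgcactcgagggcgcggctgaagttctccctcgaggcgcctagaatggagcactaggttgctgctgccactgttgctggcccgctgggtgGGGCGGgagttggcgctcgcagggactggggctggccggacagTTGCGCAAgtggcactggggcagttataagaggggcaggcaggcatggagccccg
Retn: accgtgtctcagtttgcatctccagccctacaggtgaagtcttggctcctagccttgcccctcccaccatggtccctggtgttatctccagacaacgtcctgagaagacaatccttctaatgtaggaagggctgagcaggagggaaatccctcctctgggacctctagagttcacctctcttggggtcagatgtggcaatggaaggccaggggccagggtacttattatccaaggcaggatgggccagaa
Cfd: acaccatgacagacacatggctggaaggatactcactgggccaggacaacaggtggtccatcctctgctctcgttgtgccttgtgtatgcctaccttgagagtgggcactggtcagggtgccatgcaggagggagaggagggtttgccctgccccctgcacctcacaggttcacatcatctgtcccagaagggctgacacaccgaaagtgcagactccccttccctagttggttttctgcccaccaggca
Nampt: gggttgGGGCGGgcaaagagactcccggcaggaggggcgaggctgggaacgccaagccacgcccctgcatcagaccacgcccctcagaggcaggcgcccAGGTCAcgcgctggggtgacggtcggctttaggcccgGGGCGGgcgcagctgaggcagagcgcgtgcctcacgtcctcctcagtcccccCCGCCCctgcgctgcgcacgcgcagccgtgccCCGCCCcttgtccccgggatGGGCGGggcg
The windows are chr16:23146286-23146535, chr6:29059971-29060220, chr8:3655520-3655769, chr10:79890603-79890852 and chr12:32820085-32820334, all on the plus strand. Adipoq held 3 CCAAT matches, at -34, -27 and -7 counted from -1 at the base before the start, and 33.9% of the 32851 promoter windows held at least 1. Lep held a C/EBP-type match at -55, found in 9.56% of windows, and a GC box at -98, found in 32.7%. Retn and Cfd held none of the 5 sets of letters. Nampt held 5 GC boxes and 1 core site of nuclear receptors, found in 14.0% of windows, and its window was 75.6% G and C, against 48.8% for Adipoq, 54.8% for Retn, 57.6% for Cfd and 65.6% for Lep. TATAAA, found in 12.4% of windows, was in none of the 5. Adipoq, Lep, Retn and Cfd shared none of these matches, which says only that the letters are not common to these windows.

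Nampt (ENSMUSG00000020572, chromosome 12, 32820335 to 32853369 in the deposited table, plus strand) encodes the enzyme that makes nicotinamide mononucleotide for NAD synthesis, and its secreted form is called visfatin. In Ctrl mice it read 50.3, 60.1 and 62.9 FPKM in eWAT, 43.6, 57.2 and 63.4 FPKM in iWAT, and 61.6 and 121 FPKM in BAT. The white depots overlapped wholly (log2 difference 0.09, 95% interval -0.44 to 0.62, adjusted p = 0.814, limma), and 1 BAT library lay within their range. Even so Nampt was called higher in BAT than in iWAT (0.67, SE 0.26, adjusted p = 0.0424, limma), and not than in eWAT (0.58, SE 0.26, adjusted p = 0.0702, limma), which is 1.36 and 1.24 relative to the median of all genes. Without the second BAT Ctrl library the differences were 0.19 and 0.10, and neither was called. The 2 BAT libraries labelled HuR-FKO, a separate set, read 94.9 and 128 FPKM, above all 6 white fat libraries labelled HuR-FKO, which read 45.9 to 68.4 FPKM. In these, Nampt was called higher in BAT against both iWAT (0.90, SE 0.18, adjusted p = 0.00175, limma) and eWAT (0.95, SE 0.18, adjusted p = 0.00129, limma). Median-ratio scaling of the Ctrl libraries gave 1.35 against iWAT and 1.28 against eWAT. A long non-coding RNA gene overlaps Nampt on the same strand, and reads shared by both could not be told apart here.

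Nrg4 (ENSMUSG00000032311, mm10 chromosome 9, 55220222 to 55326844, minus strand) encodes neuregulin 4, a ligand of the receptor ErbB4. It read 83.3, 63.1 and 72.6 FPKM in Ctrl eWAT, 59.1, 48.0 and 49.0 FPKM in Ctrl iWAT, and 44.5 and 58.0 FPKM in Ctrl BAT. The eWAT libraries lay above the others, while iWAT and BAT overlapped. Nrg4 was called higher in eWAT than in iWAT (log2 difference 0.48, SE 0.15, adjusted p = 0.0388, limma). With the replicate number as a block the difference of 0.48 had an adjusted p of 0.0568, and it was also lost without the first or the third eWAT or the second or the third iWAT Ctrl library (adjusted p up to 0.128). With mitochondrial genes left out of the total it was 0.39 (adjusted p = 0.0905, limma), again no call. Median-ratio scaling kept the call (0.45, adjusted p = 0.0371, limma). It was lost with no minimum FPKM (adjusted p = 0.0561, limma) and with all gene IDs tested (adjusted p = 0.0652, limma). The libraries labelled HuR-FKO gave a difference of 0.49 between eWAT and iWAT with an adjusted p of 0.00917. Between BAT and iWAT the direction of Nrg4 depended on the scaling. It was -0.03 (95% interval -0.40 to 0.34, adjusted p = 0.888, limma) with FPKM as deposited, 0.22 with mitochondrial genes left out of the total, and 0.65 (adjusted p = 0.00577) with median-ratio scaling. Against eWAT, BAT differed by -0.51 (SE 0.17, adjusted p = 0.0197, limma) with FPKM as deposited and by -0.17 without mitochondrial genes, and higher by 0.19 with median-ratio scaling. Among HuR-FKO mice, on the deposited scale, Nrg4 was called lower in BAT against both iWAT (-0.36, adjusted p = 0.0222, limma) and eWAT (-0.85, adjusted p = 0.000194, limma). Relative to the median of all genes, Nrg4 of the Ctrl libraries was higher in BAT by 0.67 against iWAT and 0.16 against eWAT. Nrg4 overlaps Fbxo22 on the other strand, which read 9.13 to 24.3 FPKM, and the sources used here do not say whether strand was used in the quantification.

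Metrnl (ENSMUSG00000039208, mm10 chromosome 11, 121701544 to 121716306, plus strand) encodes meteorin-like, a secreted protein of fat and muscle known for its part in browning in mice. Among the 8 adipokines tested it alone had its highest Ctrl mean in iWAT, with 15.1, 18.1 and 15.2 FPKM in Ctrl eWAT, 42.0, 29.5 and 20.9 FPKM in Ctrl iWAT, and 2.52 and 3.804 FPKM in Ctrl BAT. The 3 depots did not overlap, although the iWAT libraries spread widely (coefficient of variation 34.5%). Metrnl was lower in eWAT than in iWAT (-0.84, SE 0.23, adjusted p = 0.0232, limma), and this call was lost without the first or the third eWAT library or the first or second iWAT library (adjusted p up to 0.0752). In BAT it fell, by -2.90 against iWAT (SE 0.26, adjusted p = 1.21e-05, limma) and -2.05 against eWAT (SE 0.26, adjusted p = 9.19e-05, limma), which is -2.20 and -1.39 relative to the median. Macrophage markers had a similar order: the summed level of 5 of them was 602.5 to 680 FPKM in Ctrl eWAT, 822 to 1241 FPKM in Ctrl iWAT and 31.0 to 98.1 FPKM in Ctrl BAT. All 5 were detected in each depot. The sums for fat progenitors, neutrophils, B cells and T cells had the same order in Ctrl mice, without overlap between depots. The T cell sums were 88.97 to 167.0 in Ctrl iWAT, 4.16 to 6.26 in Ctrl eWAT and 0.604 to 1.09 FPKM in Ctrl BAT. Some neutrophil markers were at 0 throughout Ctrl eWAT and Ctrl BAT. Other sums had a different order. Skeletal muscle markers summed to 1415 to 2474 FPKM in Ctrl BAT, 230 to 1662 FPKM in Ctrl iWAT and 2.86 to 4.10 FPKM in Ctrl eWAT. The adipocyte and endothelial sums were highest in Ctrl eWAT. The part of any of these cell types in the Metrnl values was not tested.

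Sfrp5 (ENSMUSG00000018822, mm10 chromosome 19, 42197971 to 42202252, minus strand) encodes a secreted inhibitor of Wnt signalling. In Ctrl mice it read 21.2, 33.1 and 35.9 FPKM in eWAT, 10.98, 8.89 and 14.7 FPKM in iWAT, and 0.591 and 1.54 FPKM in BAT. The depots did not overlap, and the eWAT mean was 2.61 times the iWAT mean (log2 difference 1.30, SE 0.25, adjusted p = 0.00507, limma). In BAT it fell, by -2.61 against iWAT (SE 0.28, adjusted p = 3.79e-05, limma) and -3.92 against eWAT (SE 0.28, adjusted p = 4.59e-06, limma), which is -1.92 and -3.25 relative to the median. On this scale the pseudocount of 1 understates the BAT differences, since BAT is near 1 FPKM, and a pseudocount of 0.1 gave -3.42 and -4.79.

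Serpina12 (ENSMUSG00000041567, mm10 chromosome 12, 104028769 to 104044443, minus strand) encodes vaspin, a serine protease inhibitor first described in visceral fat of an obese rat strain. It was listed at 0 in 9 of the 16 libraries, among them the 4 BAT libraries. The other values were 0.0296 and 0.0241 FPKM in HuR-FKO eWAT, 0.0207 FPKM in Ctrl eWAT, 0.0458, 0.0772 and 0.0191 FPKM in HuR-FKO iWAT, and 0.0477 FPKM in Ctrl iWAT. At the estimated depths these correspond to about 0.968 to 3.91 fragments a library. Serpina12 stayed under the minimum of 1 FPKM, and no difference was tested.

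**Figure D2:**
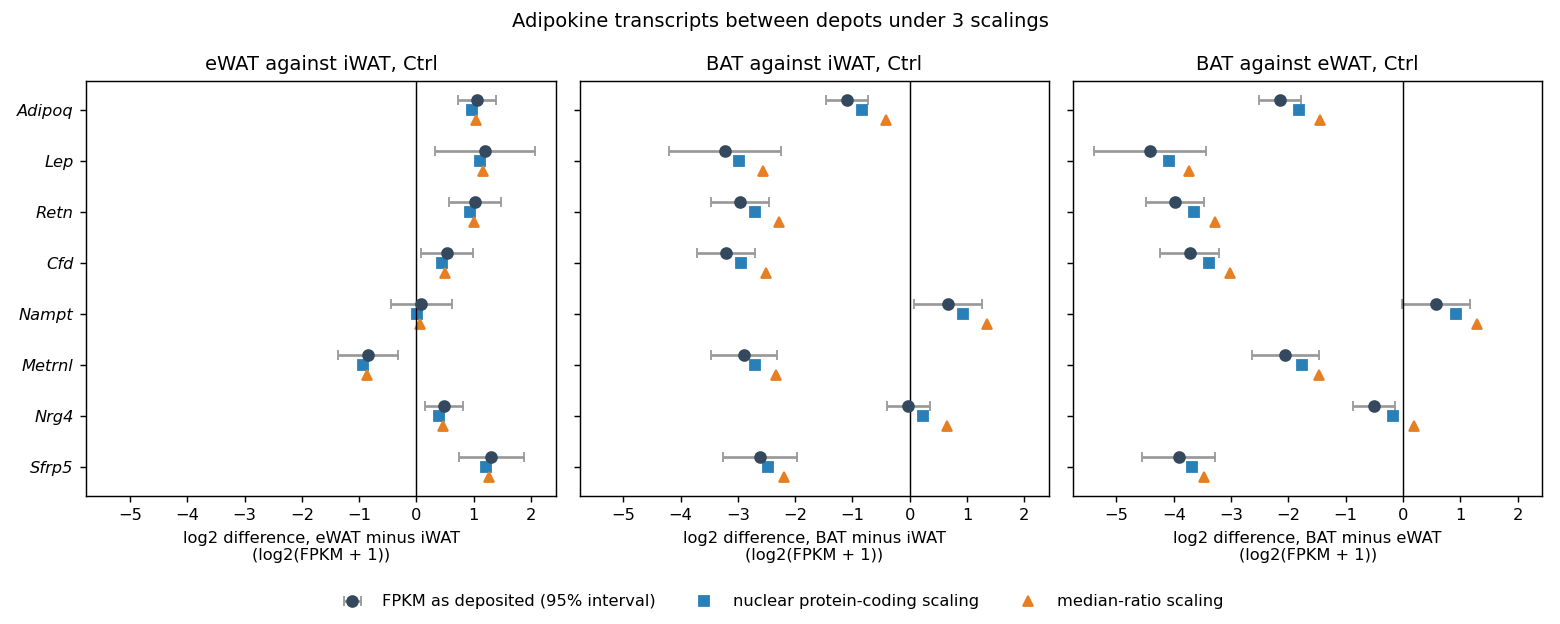
Log2 differences of the 8 adipokines tested between depots of Ctrl mice, on the log2(FPKM + 1) scale, with 3 eWAT, 3 iWAT and 2 BAT libraries. Circles are FPKM as deposited with 95% intervals, squares leave mitochondrial genes out of the total, and triangles are median-ratio scaling. Lep, Retn, Cfd, Metrnl and Sfrp5 stay between -4.41 and -1.47 in BAT under all 3 scalings, while Nrg4 runs from -0.03 to 0.65 against iWAT and from -0.51 to 0.19 against eWAT.

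The order of depots was read again in the 8 libraries labelled HuR-FKO, which share no library with the Ctrl comparison. Lep was higher in eWAT than in iWAT by 1.48 (SE 0.32, adjusted p = 0.00923, limma), Adipoq by 1.24 (SE 0.17, adjusted p = 0.000898, limma) and Retn by 0.84 (SE 0.16, adjusted p = 0.00452, limma). Cfd (0.66, adjusted p = 0.0915), Metrnl (-0.65, adjusted p = 0.0828) and Sfrp5 (1.69, adjusted p = 0.0526) did not pass there, and Nampt was at -0.05. In BAT of these mice, the differences from iWAT and eWAT were -4.15 and -4.81 for Cfd, -3.56 and -4.402 for Retn, and -2.90 and -4.38 for Lep, with adjusted p of 9.88e-05 or lower from limma.

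Between the genotypes, none of the 8 adipokines tested passed an adjusted p of 0.05 in any depot (limma, Benjamini-Hochberg). The background was as low: 5 of 12330 genes were called in eWAT (0.0406%), 5 of 12706 in iWAT (0.0394%) and 0 of 10944 in BAT (0%), where 1055 had an unadjusted p under 0.05. At an unadjusted p under 0.05, Nrg4 was higher and Lep and Retn were lower in eWAT, Nrg4 higher with Lep lower in iWAT, and Retn lower in BAT, beside 7.66%, 9.22% and 9.64% of all genes tested. The 2 groups did not overlap for Nrg4 and Retn in eWAT, Nrg4 and Lep in iWAT, and Retn and Cfd in BAT, beside 13.2%, 14.5% and 41.4% of all genes in the 3 depots. With 3 libraries against 3 an exact permutation test of a single gene cannot go below 0.10, and with 2 against 2 not below 0.3333. The median difference over the 8 adipokines was -0.02 in eWAT, -0.12 in iWAT and -0.04 in BAT, beside -0.01, -0.04 and -0.05 over all genes tested.

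**Figure D3:**
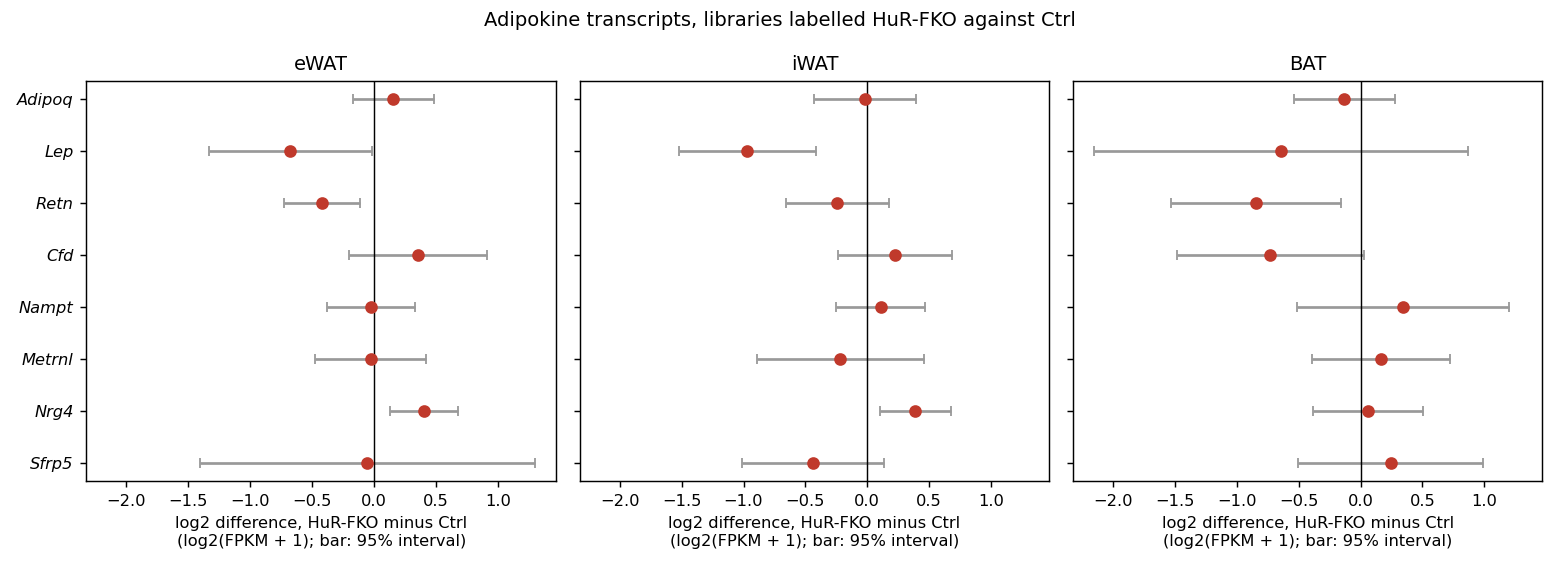
Log2 differences, HuR-FKO minus Ctrl, of the 8 adipokines tested in eWAT (3 against 3 libraries), iWAT (3 against 3) and BAT (2 against 2), on the log2(FPKM + 1) scale with 95% intervals from limma. Lep lies at -0.68, -0.97 and -0.64 and Nrg4 at 0.41, 0.39 and 0.06 in eWAT, iWAT and BAT, and none of the differences passes an adjusted p of 0.05.

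Lep was at lower means in all 3 depots of the HuR-FKO mice, without a call. In iWAT it read 145, 113 and 75.3 FPKM in HuR-FKO libraries, against 251, 185 and 202 FPKM in Ctrl libraries. All 3 HuR-FKO values lay below the Ctrl values, and the ratio of means was 0.523 (log2 difference -0.97, 95% interval -1.52 to -0.42, adjusted p = 0.306, limma). In eWAT the HuR-FKO libraries read 501, 268 and 203 FPKM and the Ctrl libraries 483, 502 and 460 FPKM. The first HuR-FKO library was level with Ctrl and the other 2 lay below, and the difference was -0.68 (95% interval -1.33 to -0.02, adjusted p = 0.649, limma), with a range from -1.04 to -0.39 when 1 eWAT library at a time was left out. In BAT the HuR-FKO libraries read 12.8 and 14.2 FPKM, between the 10.6 and 43.3 FPKM of the Ctrl libraries, and the difference of -0.64 (95% interval -2.15 to 0.86, adjusted p = 0.796, limma) became 0.32 without the higher Ctrl library.

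Leptin is made by white more than by brown adipocytes, so markers of both were read beside these values. The summed level of 10 adipocyte markers (Plin1, Fabp4, Cidec, Lipe, Pnpla2, Plin4, Cd36, Slc2a4, Acvr1c and Pparg) was 16677 to 23701 FPKM in HuR-FKO iWAT and 17476 to 18532 FPKM in Ctrl iWAT, with 0 of 10 at 0. The summed level of 8 brown adipocyte markers was 983 to 1929 FPKM in HuR-FKO iWAT and 580.0 to 797 FPKM in Ctrl iWAT, and none of them was at 0 throughout either group. Among them Ucp1, the uncoupling protein of brown fat, read 139, 182 and 101 FPKM in HuR-FKO iWAT, against 25.3, 8.33 and 21.6 FPKM in Ctrl iWAT. In eWAT the brown markers summed to 54.2 to 111 FPKM in HuR-FKO and 57.0 to 80.1 FPKM in Ctrl libraries, with Lhx8 at 0 in both, and Ucp1 was at most 0.881 FPKM. The 3 of 5 listed red cell markers that were in the table summed to 1101 to 2171 FPKM in HuR-FKO iWAT and 778 to 978 FPKM in Ctrl iWAT, and to 2619 to 3279 FPKM in HuR-FKO eWAT and 1355 to 2007 FPKM in Ctrl eWAT. The sum of 6 endothelial markers was 209 to 269 FPKM in HuR-FKO iWAT and 188 to 208 FPKM in Ctrl iWAT, and 346 to 400.5 FPKM in HuR-FKO eWAT and 262 to 325 FPKM in Ctrl eWAT. The sum of 6 markers of fat progenitors was 1307 to 1697 FPKM in HuR-FKO iWAT and 1726 to 2009 FPKM in Ctrl iWAT. The sum of 6 neutrophil markers was 20.3 to 49.8 FPKM in HuR-FKO iWAT and 53.7 to 131 FPKM in Ctrl iWAT, with none at 0 throughout either group. The sum of 5 T cell markers was 7.115 to 8.39 FPKM in HuR-FKO eWAT and 4.16 to 6.26 FPKM in Ctrl eWAT. None of these endothelial, progenitor or T cell markers was at 0 throughout a group. Their part in the Lep values, and that of the other cell types, was not tested.

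Nrg4 was at higher means in the white depots of HuR-FKO mice, without a call. In eWAT it read 94.4, 103 and 91.8 FPKM in HuR-FKO libraries and 83.3, 63.1 and 72.6 FPKM in Ctrl libraries. In iWAT it read 70.5, 74.1 and 60.6 FPKM in HuR-FKO libraries and 59.1, 48.0 and 49.0 FPKM in Ctrl libraries. In both depots every HuR-FKO library was above every Ctrl library, and the ratios of means were 1.32 and 1.31. The log2 differences were 0.41 (95% interval 0.13 to 0.68, adjusted p = 0.470, limma) and 0.39 (95% interval 0.10 to 0.68, adjusted p = 0.405, limma), and they kept a positive sign under each alternative run. In BAT the HuR-FKO libraries at 49.1 and 57.0 FPKM lay within the 44.5 and 58.0 FPKM of the Ctrl libraries (difference 0.06, 95% interval -0.39 to 0.50, adjusted p = 0.955, limma).

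Retn was at lower means in each depot of the HuR-FKO mice, again with no call. In eWAT it read 1255, 1524 and 1418 FPKM in HuR-FKO libraries and 2065, 1771 and 1787 FPKM in Ctrl libraries, with no overlap (difference -0.42, 95% interval -0.73 to -0.11, adjusted p = 0.520, limma). In iWAT it read 773, 653 and 927 FPKM in HuR-FKO libraries and 1111, 799 and 872 FPKM in Ctrl libraries, and the groups overlapped (-0.24, adjusted p = 0.767, limma). In BAT it read 56.8 and 74.4 FPKM in HuR-FKO libraries and 91.2 and 151 FPKM in Ctrl libraries, with no overlap, as for 41.4% of genes there (-0.84, 95% interval -1.53 to -0.16, adjusted p = 0.443, limma). With 1 BAT library left out at a time the difference ran from -1.20 to -0.48. Some marker sums also did not overlap between the genotypes in BAT, as 41.4% of genes there did not. The sums for brown adipocytes, mesothelium, fat progenitors, macrophages, neutrophils, B cells and epithelium overlapped. The 10 adipocyte markers summed to 15467 to 15670 FPKM in HuR-FKO BAT and 15925 to 16028 FPKM in Ctrl BAT. Skeletal muscle markers, 6 of 7 in the table, summed to 806 to 830 FPKM in HuR-FKO BAT and 1415 to 2474 FPKM in Ctrl BAT. Endothelial markers summed to 147 to 175 FPKM in HuR-FKO BAT and 124 to 130 FPKM in Ctrl BAT, and the 3 red cell markers to 1164 to 1411 FPKM in HuR-FKO BAT and 878 to 970 FPKM in Ctrl BAT. The 5 T cell markers, none with a mean above 1 FPKM in BAT, summed to 1.33 to 3.26 FPKM in HuR-FKO BAT and 0.604 to 1.09 FPKM in Ctrl BAT. None of the adipocyte, muscle, endothelial, red cell or T cell markers in the table was at 0 throughout a BAT group. The part of any of these cell types in the Retn and Cfd values in BAT was not tested.

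The genotype differences of Cfd had opposite signs in white and brown fat, and none was called. In eWAT it read 11963, 17225 and 17080 FPKM in HuR-FKO libraries and 9270, 13726 and 13162 FPKM in Ctrl libraries (difference 0.36, 95% interval -0.20 to 0.91, adjusted p = 0.795, limma). In iWAT it read 8794, 8235 and 12285 FPKM in HuR-FKO libraries and 7823, 8834 and 8136 FPKM in Ctrl libraries (0.22, adjusted p = 0.826, limma). Both white depots overlapped between genotypes. In BAT the HuR-FKO libraries read 406 and 720 FPKM, below the 780 and 1030 FPKM of the Ctrl libraries (-0.73, 95% interval -1.49 to 0.03, adjusted p = 0.532, limma), and the difference ran from -1.14 to -0.32 with 1 BAT library left out at a time. Whether the genotype difference itself differed between depots was tested as an interaction over 13237 genes and all 16 libraries. For Cfd it was -1.09 for BAT against eWAT (SE 0.38, unadjusted p = 0.0132, adjusted p = 0.713, limma) and -0.95 for BAT against iWAT (SE 0.38, unadjusted p = 0.0264, adjusted p = 0.957, limma). Neither passed, and no other adipokine reached an unadjusted p under 0.05 in an interaction. The interaction called 0.0151% of all genes for eWAT against iWAT, 0.00755% for BAT against iWAT and 0% for BAT against eWAT.

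Adipoq did not separate the genotypes. It read 2621, 2668 and 2896 FPKM in HuR-FKO eWAT and 2153, 2706 and 2508 FPKM in Ctrl eWAT (difference 0.16, 95% interval -0.17 to 0.48, adjusted p = 0.852, limma). In iWAT it read 982, 1042 and 1507 FPKM in HuR-FKO libraries and 1120, 1218 and 1177 FPKM in Ctrl libraries, a difference of -0.02 (95% interval -0.43 to 0.39) with FPKM as deposited that turned to 0.02 under median-ratio scaling. In BAT it read 482 and 521 FPKM in HuR-FKO libraries and 484 and 622 FPKM in Ctrl libraries (-0.13, 95% interval -0.54 to 0.28).

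The remaining 3 adipokines tested overlapped between the genotypes in every depot. Nampt differed by -0.02 in eWAT, 0.11 in iWAT and 0.34 in BAT, and Metrnl by -0.03, -0.22 and 0.16, with adjusted p from 0.810 to 0.984 (limma). Metrnl read 36.2, 20.0 and 22.4 FPKM in HuR-FKO iWAT, against 42.0, 29.5 and 20.9 FPKM in Ctrl iWAT. Sfrp5 read 80.3, 24.2 and 11.2 FPKM in HuR-FKO eWAT, against 21.2, 33.1 and 35.9 FPKM in Ctrl eWAT. The HuR-FKO libraries thus lay on both sides of Ctrl, and the log2 difference of -0.06 had a 95% interval from -1.41 to 1.30, the widest of the white fat results. Its arithmetic means had the opposite order, 38.6 ± 36.7 FPKM in HuR-FKO and 30.1 ± 7.80 FPKM in Ctrl libraries (SD, n = 3 each), with the value of 80.3 in one HuR-FKO library. In iWAT Sfrp5 differed by -0.44 (95% interval -1.01 to 0.14, adjusted p = 0.666, limma) and in BAT, where it was near 1 FPKM, by 0.24.

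Ratios between 2 transcripts of the same library do not depend on how libraries are scaled. They were chosen after the values had been seen and are given as a description with no test. Lep was 19.1, 10.1 and 7.00% of Adipoq in HuR-FKO eWAT and 22.4, 18.5 and 18.3% in Ctrl eWAT. In iWAT it was 14.8, 10.8 and 4.997% of Adipoq in HuR-FKO libraries and 22.4, 15.2 and 17.1% in Ctrl libraries. In BAT it was 2.65 and 2.73% in HuR-FKO libraries and 2.18 and 6.96% in Ctrl libraries. Only in iWAT did the 2 genotypes not overlap in this ratio. Retn per Adipoq was 0.479 to 0.571 in HuR-FKO eWAT and 0.655 to 0.959 in Ctrl eWAT, 0.615 to 0.788 in HuR-FKO iWAT and 0.656 to 0.992 in Ctrl iWAT, and 0.118 to 0.143 in HuR-FKO BAT and 0.188 to 0.243 in Ctrl BAT. Cfd per Adipoq was higher in iWAT than in eWAT, at 7.90 to 8.96 in HuR-FKO iWAT and 6.91 to 7.25 in Ctrl iWAT, and at 4.57 to 6.46 in HuR-FKO eWAT and 4.31 to 5.25 in Ctrl eWAT. In BAT it was 0.841 to 1.38 in HuR-FKO libraries and 1.61 to 1.66 in Ctrl libraries.

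**Figure D4:**
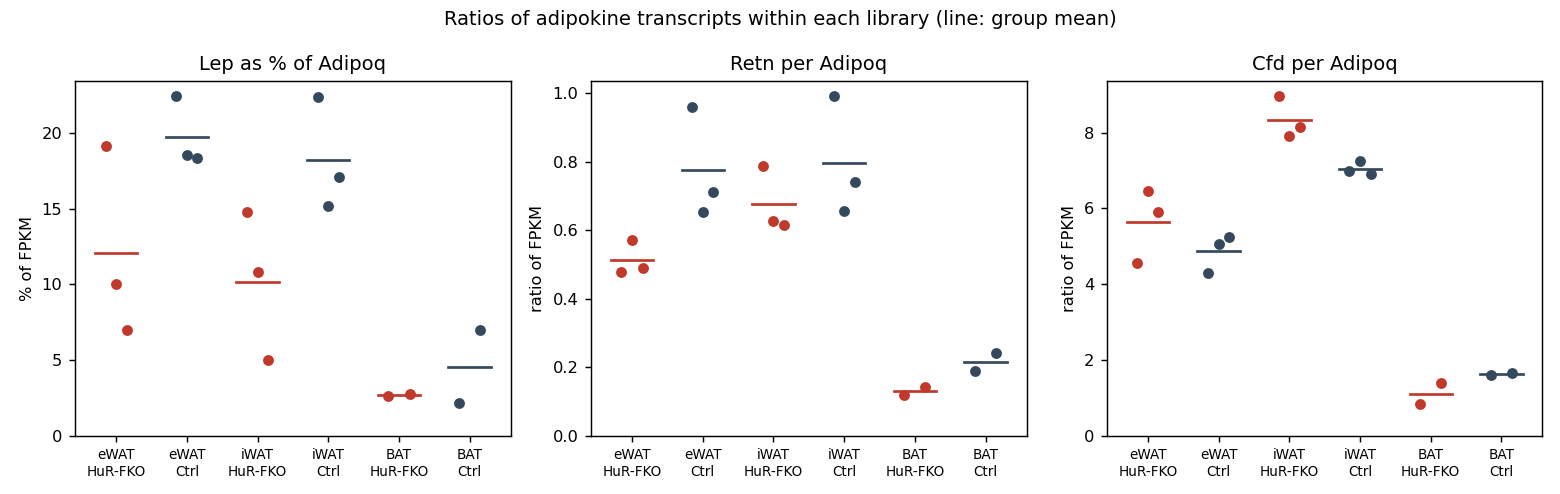
Ratios of FPKM within each of the 16 libraries: Lep as a percentage of Adipoq, Retn per Adipoq and Cfd per Adipoq, with HuR-FKO left of Ctrl in each depot, points for libraries and lines for group means, on linear axes from 0. Lep in iWAT lies at 4.997 to 14.8% of Adipoq in HuR-FKO libraries and at 15.2 to 22.4% in Ctrl libraries. The group means of all 3 ratios are lowest in BAT, although Lep in 1 Ctrl BAT library, at 6.96%, lies above the lowest HuR-FKO iWAT library.

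Receptors and partners of these proteins were read from a list of 22 genes, 20 of which were tested between depots. Of these, 2 were higher and 2 lower in eWAT than in iWAT, 1 was higher and 12 were lower in BAT than in iWAT, and 2 were higher and 14 lower in BAT than in eWAT, beside 28.1%, 74.5% and 74.2% of all genes called in these comparisons, so the counts in BAT are near the background. Their median differences in BAT were -0.63 and -0.61, close to the -0.69 and -0.66 of all genes. Cfb, the factor B that adipsin cuts, was 6.54 ± 5.65 FPKM in Ctrl BAT (SD, n = 2), against 164 ± 22.4 FPKM in Ctrl iWAT and 148 ± 5.37 FPKM in Ctrl eWAT (SD, n = 3 each), with log2 differences of -4.68 and -4.54. C3, the central component of complement, was 119 ± 58.3 FPKM in Ctrl BAT, against 529 ± 61.5 FPKM in Ctrl iWAT and 412 ± 43.9 FPKM in Ctrl eWAT. In eWAT against iWAT, Adipor1, a receptor of adiponectin, was higher by 0.36 (SE 0.10, adjusted p = 0.0234, limma) and Fzd4, a Wnt receptor, by 0.61 (SE 0.11, adjusted p = 0.00353, limma), while Kit was lower (-0.89), as was Erbb3 (-0.59). Lepr, the leptin receptor, was at 1.71 ± 0.455 FPKM in Ctrl eWAT, 2.94 ± 1.40 FPKM in Ctrl iWAT and 0.123 ± 0.0258 FPKM in Ctrl BAT. None of the list was called between genotypes. In eWAT and BAT the smallest p belonged to Cdh13, which encodes T-cadherin, a binding partner of adiponectin, at a difference of 0.43 in eWAT (adjusted p = 0.596, limma) and -0.47 in BAT (adjusted p = 0.433, limma). It read 34.7, 33.9 and 37.4 FPKM in HuR-FKO eWAT, against 33.1, 26.1 and 20.2 FPKM in Ctrl eWAT. In BAT it read 15.1 and 17.3 FPKM in HuR-FKO libraries and 21.4 and 24.3 FPKM in Ctrl libraries.

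Adiponectin is built into large complexes in the endoplasmic reticulum, and 9 of 10 gene symbols listed for that step were in the table and tested. None was called between eWAT and iWAT, 8 were lower in BAT than in iWAT and 7 in BAT than in eWAT, and none was called between genotypes. The shares of all genes called, in either direction, were 28.1%, 74.5% and 74.2% between the depots, so the 7 of 9 against eWAT is near the background. P4hb, the beta subunit of prolyl hydroxylase, was 33.0 ± 7.29 FPKM in Ctrl BAT (SD, n = 2), against 154 ± 12.7 FPKM in Ctrl iWAT and 174 ± 10.04 FPKM in Ctrl eWAT (SD, n = 3 each), with log2 differences of -2.20 and -2.38. Plod3, a lysyl hydroxylase, differed by -1.87 and -2.13 and the chaperone Pdia3 by -1.66 and -1.40. The list's medians of -1.09 and -1.02 lay below those of all genes.

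Of 26 gene symbols listed for other secreted factors of fat, 25 were in the table and 21 were tested between depots. In eWAT against iWAT 7 were called higher and 1 lower, and their median was 0.40 beside -0.02 for all genes. Agt, the angiotensinogen gene, had the largest difference, at 197 ± 73.5 FPKM in Ctrl eWAT and 11.7 ± 1.12 FPKM in Ctrl iWAT (SD, n = 3 each, log2 difference 3.89, adjusted p = 2.41e-05, limma). The lipocalin Lcn2 was higher by 1.37 and the retinol carrier Rbp4 by 1.09. In BAT 2 were higher and 16 lower than in iWAT, and 1 was higher and 17 lower than in eWAT, with medians of -1.37 and -2.30. All genes were called at 28.1% for eWAT against iWAT, 74.5% for BAT against iWAT and 74.2% for BAT against eWAT. Among those, Agt differed from eWAT by -5.82 and Ccdc80 by -3.87, and C1qtnf1 from iWAT by -3.44 and Fstl1 by -3.23. Between genotypes none was called. The gene with the smallest p was Rbp4 in BAT, at 43.4 and 48.8 FPKM in HuR-FKO libraries, against 120.1 and 119.9 FPKM in Ctrl libraries (difference -1.36, SE 0.13, adjusted p = 0.198, limma). In eWAT Rbp4 read 428, 456 and 449 FPKM in HuR-FKO libraries and 654, 513 and 629 FPKM in Ctrl libraries, also without overlap (-0.42, adjusted p = 0.467, limma).

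Among 18 relatives of the adipokines, 10 were tested in white fat. The only gene of these lists called between genotypes was Retnlg, a relative of resistin that is known from neutrophils. In iWAT it read 1.26, 1.36 and 1.95 FPKM in HuR-FKO libraries, against 6.46, 5.17 and 6.62 FPKM in Ctrl libraries (difference -1.49, SE 0.15, adjusted p = 0.0430, limma). The call was lost under 6 of 8 other settings, with the replicate block at an adjusted p of 0.102 and with all 16 libraries in 1 fit at 0.424, and it was kept without the third HuR-FKO library (0.0448) but lost without any other iWAT library (0.138 to 0.368). The summed level of 6 neutrophil markers, of which Retnlg is 1, was 20.3 to 49.8 FPKM in HuR-FKO iWAT and 53.7 to 131 FPKM in Ctrl iWAT, with none at 0 throughout a group, and their part in the Retnlg value was not tested. In eWAT, Retnlg read 0.256, 3.74 and 11.5 FPKM in HuR-FKO libraries and 0.865, 1.26 and 4.77 FPKM in Ctrl libraries. Retnla, another relative of resistin, was at 932 ± 139 FPKM in Ctrl eWAT and 811 ± 331 FPKM in Ctrl iWAT, against 33.1 ± 34.4 FPKM in Ctrl BAT. The relatives of Sfrp5 differed in their depot order: Sfrp1 was higher in eWAT than in iWAT by 1.30, as Sfrp5 was, while Sfrp2 (-1.43) and Sfrp4 (-1.93) were lower.

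The protein-coding genes nearest to each adipokine in pattern were found over the 6 group means of log2(FPKM + 1), each centred on its own mean, among 7482 genes with a mean of at least 10 FPKM in some group. The measure is the root mean square difference, on the log2 scale, and it is a description over 6 groups that share their libraries. Adipoq was nearest to Plin4 (0.0788), and Lep to Prkcdbp (0.184) and Fads3 (0.260). Retn was nearest to Podn (0.179) and Slc7a10 (0.197), and Cfd to Serpina3c (0.238) and Inmt (0.251). Nampt was nearest to Polr2k (0.0436), and Metrnl was close to Fgl2 (0.0602). Nrg4 was nearest to Wdr6 (0.0648) and Ets2 (0.0683), and Sfrp5 to Fbln1 (0.142) and Gpc3 (0.145). Lep, Retn and Cfd, with the widest range over the groups, had the most distant nearest genes. Prkcdbp, for example, was at 219 and 259 FPKM in HuR-FKO and Ctrl eWAT, 79.4 and 122 FPKM in HuR-FKO and Ctrl iWAT, and 9.17 and 12.4 FPKM in HuR-FKO and Ctrl BAT.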

How the data were processed

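Fat of 12-week-old HuR-FKO and Ctrl littermates was sequenced in 16 paired-end, strand-specific libraries, each from RNA of 3 pooled mice. The authors aligned reads to mm10 with TopHat2 2.0.11 and deposited FPKM per gene from Cufflinks 2.1.1. Libraries were matched to groups from labels and column names. GENCODE vM21 held 36464 of 38371 gene IDs, 21110 of them protein-coding. Summed FPKM of all rows ran from 719411 to 12928419 and of protein-coding rows from 578835 to 676812, so log2(FPKM + 1) was analysed, over protein-coding genes whose mean exceeded 1 FPKM in a compared group.

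limma 3.58.1 (R 4.3.3, eBayes with a trend, two-sided, Benjamini-Hochberg, threshold 0.05) was fitted per depot for genotype, over 8 Ctrl libraries for depots, and over 16 for the interaction. The procedure was tested on simulated data with 200 genes changed by a log2 difference of 1. Between genotypes it found 96% of them in eWAT, 93% in iWAT and 77% in BAT. It found 88 to 94.5% between depots and 50 to 70% in the interactions. Of the genes called, 2.68 to 8.57% were false. The changed genes were drawn only from more highly expressed ones, which left out genes at the level of Metrnl and Sfrp5 in BAT. The simulated noise was normal and independent, with the spread of each gene drawn towards the median. More genes were also changed than were called between genotypes here, which makes the adjusted threshold easier to pass. The shares found need not hold for the adipokines in the real libraries. Alternatives were other pseudocounts, filters, gene sets, scalings, variance models, samples, a replicate block and leaving out each library. The scaling on nuclear protein-coding genes was chosen after seeing the data.

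The 9 genes and the lists were chosen with earlier results of these data known. Genes named were the 9, Elavl1, up to 4 called genes per list and comparison or else the smallest p, and the nearest genes in pattern, of which a few are not reported here. Ucp1, Fbxo22, the ratios to Adipoq, and Lepr, Retnla, Retnlg and Rbp4 values beyond it were picked with the values in view.

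Deviations from the group means, across genes, correlated at 0.240, 0.276 and 0.192 between eWAT and iWAT Ctrl libraries of 1 number, so these were also fitted as pairs. Between different numbers they were at -0.07 or lower, which centring on group means favours once equal numbers correlate positively. HuR-FKO libraries of different depots were not checked in this way. Deviations of HuR-FKO and Ctrl libraries of 1 depot and number correlated from -0.26 to 0.39. They were not taken as pairs, with only 2 pairs in BAT. Promoter sequences came from RefSeq (GRCm38.p6).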

Additional observations from a re-analysis of the deposited data

How the results depend on the processing

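The number of adipokines called stayed at 0 between genotypes and in the interactions under each alternative, at 6 to 8 for BAT against iWAT and against eWAT, and at 3 to 7 for eWAT against iWAT, where 6 were called with FPKM as deposited. That last count was 3 with all gene IDs tested. It was also 3 without the third eWAT or the second iWAT Ctrl library. With the replicate block it was 4, Lep and Nrg4 being lost, and the block added Nampt in BAT against eWAT (0.67, adjusted p = 0.00936) and changed no other call. Between genotypes, libraries of equal number correlated at 0.24, -0.26 and -0.08 in eWAT, so the numbers showed no pairing there. In iWAT they correlated at 0.08, 0.02 and 0.39, and those of different numbers from -0.41 to 0.35, which does not settle the pairing. In BAT the correlation was 0.367 for equal numbers, and centring 2 libraries on their mean fixes it at -0.367 for different numbers. With 2 pairs this does not settle the pairing. The 8 adipokines tested read lower in BAT library 1 than in BAT library 2 of both genotypes. There the block gave adjusted p of 0.0608 for Retn and 0.0774 for Cfd. The block left the adipokines called at 0 in each depot and moved the count of all genes called to 0 in eWAT (from 5), 0 in iWAT (from 5) and 46 in BAT (from 0).

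Signs turned under another setting for Adipoq between genotypes in iWAT (0.018, median-ratio scaling), for Nampt in eWAT against iWAT (-0.046, HuR-FKO libraries), and for Nrg4 in BAT against iWAT (0.65, median-ratio scaling, and 0.22, nuclear scaling) and against eWAT (0.19, median-ratio scaling). Scaling apart, the cause was not tested. With single libraries left out, the genotype difference ran, in BAT, from -0.31 to 0.049 for Adipoq, -1.61 to 0.32 for Lep, -0.060 to 0.39 for Metrnl, -0.14 to 0.83 for Nampt, -0.13 to 0.25 for Nrg4 and -0.10 to 0.58 for Sfrp5. In eWAT it ran from -0.24 to 0.17 for Metrnl, -0.16 to 0.12 for Nampt and -0.79 to 0.58 for Sfrp5, and in iWAT from -0.21 to 0.10 for Adipoq, -0.47 to 0.028 for Metrnl and -0.044 to 0.22 for Nampt. Nampt in eWAT against iWAT ran from -0.065 to 0.20 and Nrg4 in BAT against iWAT from -0.22 to 0.16. Counts of all genes called between genotypes also moved. With all 16 libraries in 1 fit they were 22 in eWAT, 34 in iWAT and 50 in BAT, and with single libraries left out they ran from 1 to 6 in eWAT, 0 to 5 in iWAT and 0 to 136 in BAT, the last without the second BAT Ctrl library.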
